A study of Mus musculus with 40 samples.

Results

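Mitochondrial ribosomal protein genes are the nuclear genes whose products build the ribosome inside mitochondria. They were chosen by symbol alone, as the protein-coding genes named Mrpl or Mrps followed by a number, with pseudogene symbols left out. The rule found 78 genes among the 28467 genes of the bulk table, and all 78 are also among the 32285 genes of the nucleus table. The right kidney was measured after a sham operation or after unilateral nephrectomy (removal of 1 kidney, abbreviated UNx) in male C57BL/6 mice aged 8 to 12 weeks. Poly-A RNA from kidney cross sections was sequenced from 6 sham and 6 UNx mice at each of 24, 48 and 72 h (36 libraries, each from its own mouse). Nuclei were sequenced at 24 h from 2 sham and 2 UNx mice (16500 nuclei). Apart from the operation the groups carry no genetic change or drug that the labels name. Bulk libraries held 14.87 to 24.11 M estimated counts and the nuclei of 1 mouse 35.45 to 49.56 M estimated molecules (UMIs). The label batch is 1 for all 24 h bulk libraries and 2 for all 48 and 72 h libraries, so sham and UNx shared a batch at each time, while 24 h and the later times cannot be told apart from the batches.

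The mitochondrial ribosome translates only the proteins encoded by mitochondrial DNA, all of them core parts of the respiratory chain and ATP synthase. It has a large and a small subunit like its bacterial ancestor, and it gained many proteins that bacteria lack. All of its proteins are encoded in the nucleus, made in the cytosol and imported. Kidney tubules, above all the proximal tubule and the thick ascending limb, are rich in mitochondria because they pump ions by ATP-driven transport, and the remaining kidney is known to enlarge after nephrectomy. By their established names in the assembled particle, 51 members are large subunit proteins and 26 small subunit proteins. Mrps18a and Mrps30, named for the small subunit, sit in the large one, and Mrps36 is now counted as a subunit of the alpha-ketoglutarate dehydrogenase complex rather than of the ribosome. Of the ribosomal members, 46 have a bacterial counterpart and 31 are particular to mitochondria.

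Some libraries stood apart in measures that use no member. The share of counts from mitochondrially encoded genes was 23.5 to 26.7% in the 24 h shams but 14.0 to 15.5% in the 48 h shams and 13.6 to 15.2% in the 72 h shams. In the 48 h UNx group it was 25.8 to 26.4% in replicates 1 to 5 and 15.2% in replicate 6, the level of the shams beside it. A score from 147 processed pseudogenes, scaled so that the 48 and 72 h shams average 0 and the 24 h shams average 1, gave 0.609 to 0.864 in the 24 h UNx libraries. It was 0.561 to 0.661 in 48 h UNx replicates 1 to 5, 0.00307 in replicate 6, and -0.0491 to 0.114 in the 72 h UNx libraries. The part of this library difference in the results at 24 and 48 h was not tested beyond the values given beside them. The 48 h comparison is therefore given with all 6 UNx libraries, without replicate 6, and with replicate 6 as the only UNx library. The summed level of 6 proximal tubule markers was 7867 to 12270 counts per 1000000 (CPM) over all groups, all 6 were detected, and the ranges of the groups overlapped. Red blood cell markers summed to 111 to 198 CPM in the 24 h libraries and 249 to 999.9 CPM later. Adipose markers, 5 in number, summed to at most 0.389 CPM in the 24 h shams. In the 24 h UNx libraries their highest sum was 295 CPM and their median 0.119 CPM. The highest sums were 199 CPM in shams and 99.8 CPM in UNx at 48 h, and 64.4 and 50.6 CPM at 72 h. The part of red blood cells and fat in the results was not tested.

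Member transcripts were a small fraction of each bulk library. They took 0.235 to 0.255% of counts in the 24 h shams and 0.255 to 0.266% in the 24 h UNx libraries. At 48 h they took 0.253 to 0.273% in the shams, 0.235 to 0.264% in UNx replicates 1 to 5 and 0.288% in replicate 6. After removal of the mitochondrially encoded genes from the total, the 48 h shams held 0.296 to 0.317% and UNx replicates 1 to 5 held 0.319 to 0.356%, so the direction of the summed 48 h difference for these 5 libraries depends on whether those genes are in the total. At 72 h the shares were 0.245 to 0.269% in shams and 0.259 to 0.272% in UNx. The main edgeR fold changes below are scaled by the trimmed mean of M values (TMM), which discounts such dominant genes. The within-batch differences given for nuclei are not so scaled.

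**Figure D1:**
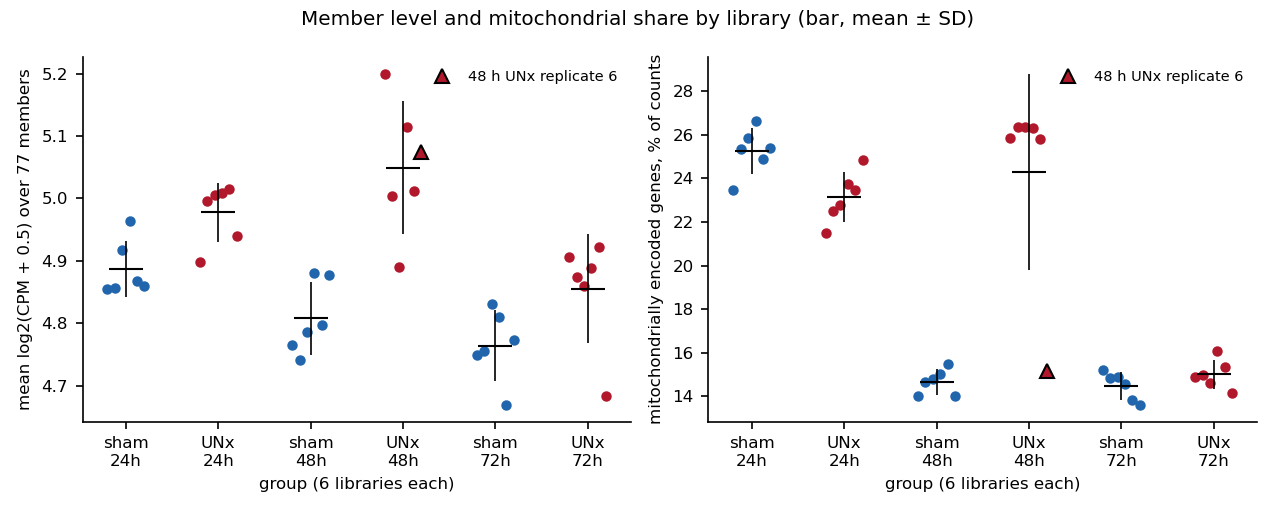
Left, the mean over 77 members (Mrpl23 left out for its low counts) of log2(CPM + 0.5) in each bulk library; right, the percent of counts from mitochondrially encoded genes; 6 libraries a group, bar for mean ± SD. The 48 h UNx replicate 6 (triangle) lies with its group for the members but at 15.2% for the mitochondrial share, where the other 5 lie at 25.8 to 26.4%.

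At 24 h after nephrectomy 30 of 78 members were higher and 8 were lower than in shams (edgeR quasi-likelihood test, Benjamini-Hochberg adjusted p under 0.05 over all genes). Of all genes tested, 14.2% were called higher and 13.1% lower. The median log2 fold change was 0.09 over the members and 0.01 over all genes, and 54 of 78 members and 50.8% of all genes were above 0. All 6 UNx libraries lay above all 6 shams for 14 members and below for 2, where 5.28% and 5.02% of all genes did so. The pseudogene score at 24 h ran from 0.950 to 1.05 in shams and from 0.609 to 0.864 in UNx. As these ranges did not overlap, a fit with the score as a covariate can hardly tell it from the operation. In that fit edgeR called 0 members in either direction, and 3 had an unadjusted p under 0.05. Among all genes that fit called 0.454% upward and 0.149% downward, and the unadjusted p was under 0.05 for 8.83%.

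The largest rise at 24 h was in Mrpl36, a very small large-subunit protein with a bacterial counterpart. Its lowest, median and highest levels were 8.73, 9.87 and 12.0 CPM in shams and 14.3, 16.6 and 18.1 CPM in UNx. All UNx libraries lay above all shams, and the log2 fold change was 0.68 ± 0.089 (SE; adjusted p = 0.00018, edgeR). Its exons overlap those of Ndufs6, a complex I subunit gene on the opposite strand. Mrps11, a protein of the small subunit platform, ran from 7.18 through 8.26 to 9.51 CPM in shams and from 11.3 through 12.9 to 14.3 CPM in UNx. The groups did not overlap, and the difference was 0.61 ± 0.089 (SE; edgeR adjusted p = 0.000343). Mrps14, a protein of the small subunit head, was at 10.7, 13.8 and 15.4 CPM in shams and 15.2, 19.2 and 21.1 CPM in UNx. Here the lowest UNx library fell below the highest sham, and the log2 fold change was 0.49 ± 0.094 (SE; edgeR adjusted p = 0.00179). Mrpl35, Mrpl53, Mrpl19, Mrps18c and Mrpl13 completed the 8 largest rises with log2 fold changes between 0.39 and 0.43. Of these 5, only Mrpl13 had groups that overlapped. Exons of Mrpl53 and Mrps18c overlap other genes on the same strand (Gm42688 and Gm43511), so their counts are uncertain. Exons of Mrpl13 and Mrpl19 overlap protein-coding genes on the opposite strand (Mtbp and Gcfc2), as do those of Mrpl36 and Mrps11. In all, 28 members overlap a gene on the opposite strand, and no source used here says whether counting used strand, so their counts are uncertain too.

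The 8 members that fell at 24 h were Mrpl41, Mrpl43, Mrps23, Mrps12, Mrpl22, Mrps26, Mrps21 and Mrpl46, with log2 fold changes from -0.39 to -0.26. Mrpl41, a large subunit protein that bacteria lack, was at 32.2, 39.0 and 42.9 CPM in shams and 26.2, 29.0 and 31.9 CPM in UNx. The groups did not overlap (log2 fold change -0.39 ± 0.072, SE; edgeR adjusted p = 0.00151). Mrps12, the counterpart of the bacterial protein in which streptomycin resistance mutations arise, was at 30.9, 35.1 and 40.6 CPM in shams and 26.5, 27.3 and 30.8 CPM in UNx. Its highest UNx library was just under its lowest sham (-0.34 ± 0.07, SE; edgeR adjusted p = 0.00248). Mrpl46 was at 32.7, 37.2 and 40.2 CPM in shams against 27.7, 30.3 and 34.4 CPM in UNx, which overlapped (-0.26 ± 0.067, SE; edgeR adjusted p = 0.0115). Without sham replicate 3 Mrps26 was no longer called (-0.22; edgeR adjusted p = 0.0505). With the pseudogene score in the model 5 of these 8 had fold changes above 0, given with the other reversals in the closing part.

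**Figure D2:**
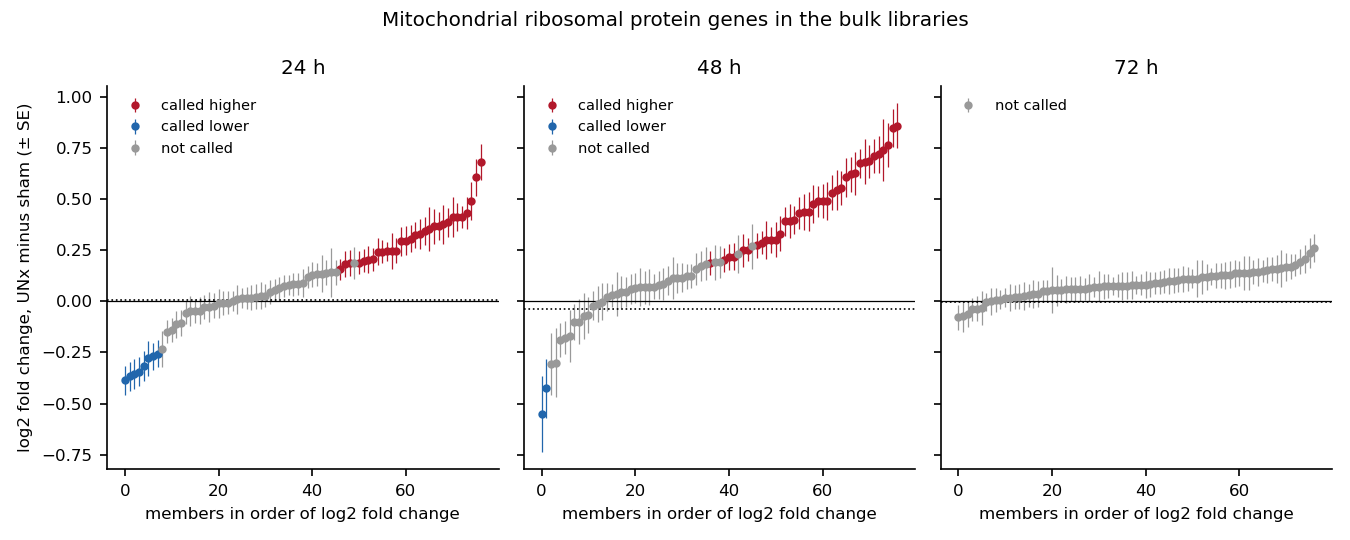
Log2 fold change (UNx minus sham, ± SE) of 77 members at 24, 48 and 72 h, each panel in its own order; red and blue mark calls, grey no call, and the dotted line is the median of all genes; Mrpl23 is left out for its low counts. The spread is widest at 48 h, reaching 0.86, and at 72 h no member is called although most lie slightly above 0.

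At 48 h 37 of the 77 members tested were higher in UNx and 2 were lower, against 16.9% and 16.0% of all genes. The median was 0.19 over the members and -0.04 over all genes, and 63 members and 45.3% of all genes were above 0. All UNx libraries lay above all shams for 26 members, and this held for 7.05% of all genes. No member lay wholly below, against 4.13% of all genes. The count of members called lower was 6 with limma voom and 4 with all 36 libraries in 1 fit. The shares of all genes called in these 2 fits are not given, so these counts do not show whether the members differ from other genes. Mrpl23, which failed the low-count filter, was at 0.384 to 1.06 CPM in shams and 0.0695 to 0.576 CPM in UNx.

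The 8 largest rises at 48 h were Mrpl42, Mrps15, Mrpl46, Mrpl41, Mrps18b, Mrpl34, Mrpl38 and Mrps12, between 0.68 and 0.86. Mrpl42, a large subunit protein particular to mitochondria, was at 62.2, 64.0 and 71.2 CPM in shams. Its UNx replicates 1 to 5 were at 119 to 150 CPM and replicate 6 was at 82.5 CPM, so replicate 6 lay between the shams and the other UNx libraries. With all 6 the log2 fold change was 0.86 ± 0.11 (SE; edgeR adjusted p = 0.000346), and with replicate 6 alone it was 0.31 ± 0.096 (SE). Mrps15, whose bacterial counterpart binds ribosomal RNA early in small subunit assembly, was at 16.5, 17.8 and 20.1 CPM in shams, 31.3 to 36.4 CPM in UNx replicates 1 to 5 and 24.2 CPM in replicate 6. Its log2 fold change was 0.85 ± 0.092 with all 6 (SE; edgeR adjusted p = 0.000346) and 0.42 ± 0.111 with replicate 6 alone (SE).

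Mrpl12, the stalk protein that recruits translation factors, gave another order of the libraries. Its shams were at 102, 112 and 122 CPM, UNx replicates 1 to 5 at 135 to 182 CPM and replicate 6 at 154 CPM, so replicate 6 lay inside the range of its group. The log2 fold change was 0.49 ± 0.077 (SE; edgeR adjusted p = 0.000713) with all 6 UNx libraries and 0.43 ± 0.098 (SE) with replicate 6 alone. Mrpl41 behaved unlike it, with 15.0, 18.6 and 20.2 CPM in shams, 29.0 to 39.3 CPM in UNx replicates 1 to 5 and 17.7 CPM in replicate 6. Its value was 0.74 ± 0.15 (SE; edgeR adjusted p = 0.00287) with all 6 and -0.05 ± 0.17 (SE) with replicate 6 alone.

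The 2 members called lower at 48 h were Mrps14 and Mrps18c, both small subunit proteins with bacterial counterparts. Mrps14 was at 26.0, 27.0 and 29.6 CPM in shams, 12.5 to 18.4 CPM in UNx replicates 1 to 5 and 34.0 CPM in replicate 6, which was the highest of the 12 libraries. The log2 fold change was -0.55 ± 0.19 (SE; edgeR adjusted p = 0.0359) with all 6, -0.79 without replicate 6 (edgeR adjusted p = 1.66e-05) and 0.30 ± 0.096 (SE) with replicate 6 alone. Mrps18c was at 13.5, 15.3 and 16.9 CPM in shams, 7.24 to 12.2 CPM in UNx replicates 1 to 5 and 16.1 CPM in replicate 6. Its value was -0.43 ± 0.14 (SE; edgeR adjusted p = 0.0342) with all 6 and 0.07 ± 0.13 (SE) with replicate 6 alone. The Mrps14 call was lost on leaving out any 1 of 10 of the 12 libraries, all but sham replicate 1 and UNx replicate 6, with edgeR adjusted p between 0.0527 and 0.0777. The Mrps18c call was lost for 8 of the 12, with edgeR adjusted p between 0.0522 and 0.0697.

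Replicate 6 differed from shams in 1 direction across nearly the whole list. It lay above all 6 shams for 69 of 78 members, below all for 0, and among them for 9. Of the 15093 genes kept over all libraries 24.0% lay above all 6 shams and 20.4% below. With it as the only UNx library 76 of 78 log2 fold changes were above 0, with a median of 0.25 and a range of -0.18 to 0.51. Over all 15605 genes of that fit 45.6% were above 0 and the median was -0.03. The edgeR fit called 0 members and 0 genes (0.00% in each direction). In it 44 members and 2232 genes had an unadjusted p under 0.05, and it assumes that the lone library varies like the shams. Without replicate 6, 38 members were called higher and 6 lower, where 21.9% and 19.8% of all genes were called. The member median was then 0.21 with 61 of 77 above 0, beside -0.02 and 47.6% above 0 over all genes. The 5 other libraries thus held both rises and falls, and the values of the single library were nearly all above 0.

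Across the members the values of replicates 1 to 5 ran along a difference present between shams of different times. In 24 of 78 members the mean log2(CPM + 0.5) of the 24 h shams differed from that of the 72 h shams by more than 0.5, and this was so for 0 members between the 48 and 72 h shams. The median size of the difference was 0.28 between 24 and 72 h shams and 0.05 between 48 and 72 h shams. Across 77 members the 24 h minus 72 h sham difference and the 48 h fold change without replicate 6, which share no library, had a Pearson r of 0.748. With replicate 6 alone as the UNx library r was 0.025 across 78 members. These are descriptions across genes, which are not independent replicates, and they set 5 libraries against 1. The same values over all genes are not given, so these do not show whether the members differ from other genes. Their cause was not tested. The pseudogene score was -0.0557 to 0.0807 in the 48 h shams, and of the UNx libraries only replicate 6 (0.00307) fell in that range. For replicates 1 to 5 a fit with the score can therefore hardly tell it from the operation. With the pseudogene score as a covariate at 48 h edgeR called 0 members, where 0.00% of all genes were called in either direction. In that fit 39 of 77 members and 15.3% of all genes had an unadjusted p under 0.05, the medians were 0.26 and -0.02, and the fold change of Mrpl42 was 0.37 (edgeR adjusted p = 0.271).

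**Figure D3:**
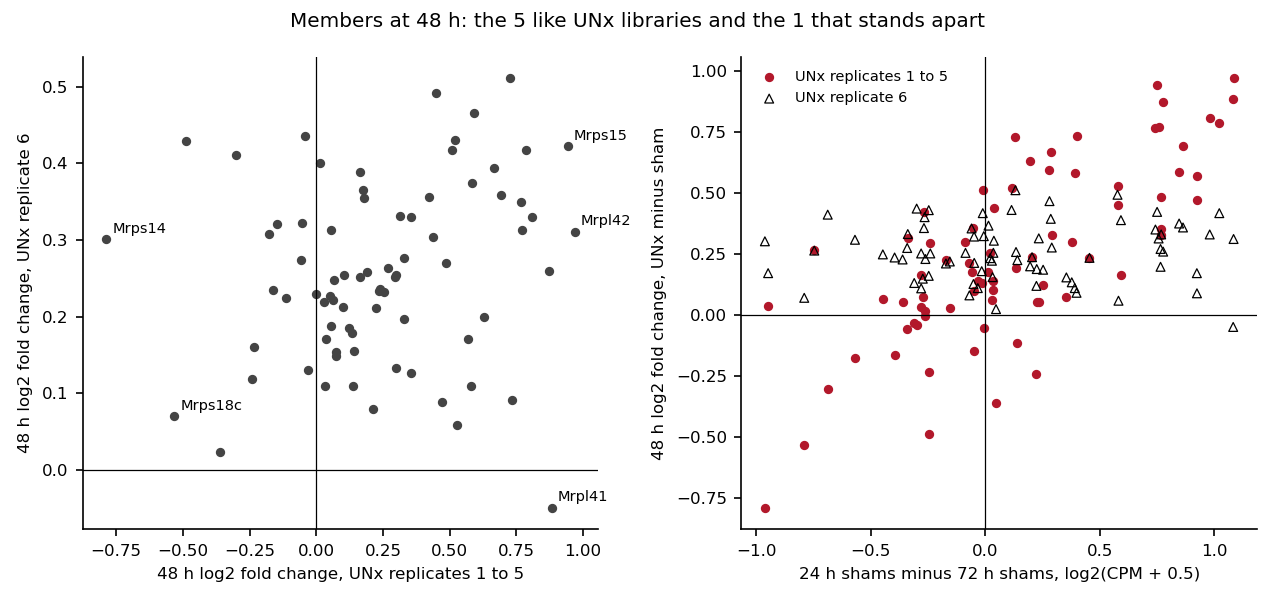
Left, each of 77 members' 48 h log2 fold change with UNx replicates 1 to 5 (x axis) and with UNx replicate 6 alone (y axis); right, the 24 h minus 72 h sham difference in log2(CPM + 0.5) against both 48 h fold changes. Points for replicates 1 to 5 climb with the sham difference (r of 0.748), and the triangles for replicate 6 form a flat band above 0 (median 0.25) with Mrpl41 just below it.

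At 72 h edgeR called 0 of 78 members in either direction, where 1.21% of all genes were called higher and 0.502% lower. The unadjusted p was under 0.05 for 16 of 78 members and for 17.3% of all genes. The members leaned one way all the same, with 71 of 78 log2 fold changes above 0 and a median of 0.08, beside 48.9% above 0 and a median of -0.00 over all 14556 genes tested. The lowest p-values among positive changes were those of Mrpl16, Mrpl57 and Mrpl3. Mrpl16, a protein next to the peptidyl transferase centre, was at 29.9, 32.6 and 36.0 CPM in shams and 32.0, 40.5 and 44.3 CPM in UNx. Its groups overlapped, and the value was 0.26 ± 0.069 (SE; edgeR adjusted p = 0.0733). Mrpl57 was 0.24 ± 0.072 and Mrpl3 0.18 ± 0.054 on the same scale (SE; edgeR adjusted p = 0.112 for each). The lowest p-values among negative changes belonged to Mrpl50, Mrpl41 and Mrpl40, at -0.08, -0.07 and -0.06.

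Mrps17 was the 1 member at 72 h whose UNx libraries, at 29.9 to 32.2 CPM, all lay above the shams, at 26.7 to 29.6 CPM. Of all genes 1.33% lay so, and the log2 fold change of Mrps17 was 0.12 ± 0.04 (SE; edgeR adjusted p = 0.135). UNx replicate 6 at 72 h had the lowest mean member level of its group. Without it 5 members were called higher: Mrpl16 (0.31), Mrps34 (0.24), Mrpl38 (0.22), Mrpl53 (0.21) and Mrpl49 (0.18). That fit called 2.93% of all genes higher and 1.70% lower. limma with voom called 3 members (Mrpl16, Mrpl49 and Mrps34), all higher, with 3.10% of all genes higher and 2.46% lower. DESeq2 called 2.68% of all genes higher, 1.94% lower and 1 member, which was higher (Mrpl16, 0.26; DESeq2 adjusted p = 0.0238). At 72 h edgeR with the pseudogene score as a covariate called 0 members, where 0.653% of all genes were called upward and 0.0618% downward. In that fit 6 members and 12.6% of all genes had an unadjusted p under 0.05.

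**Figure D4:**
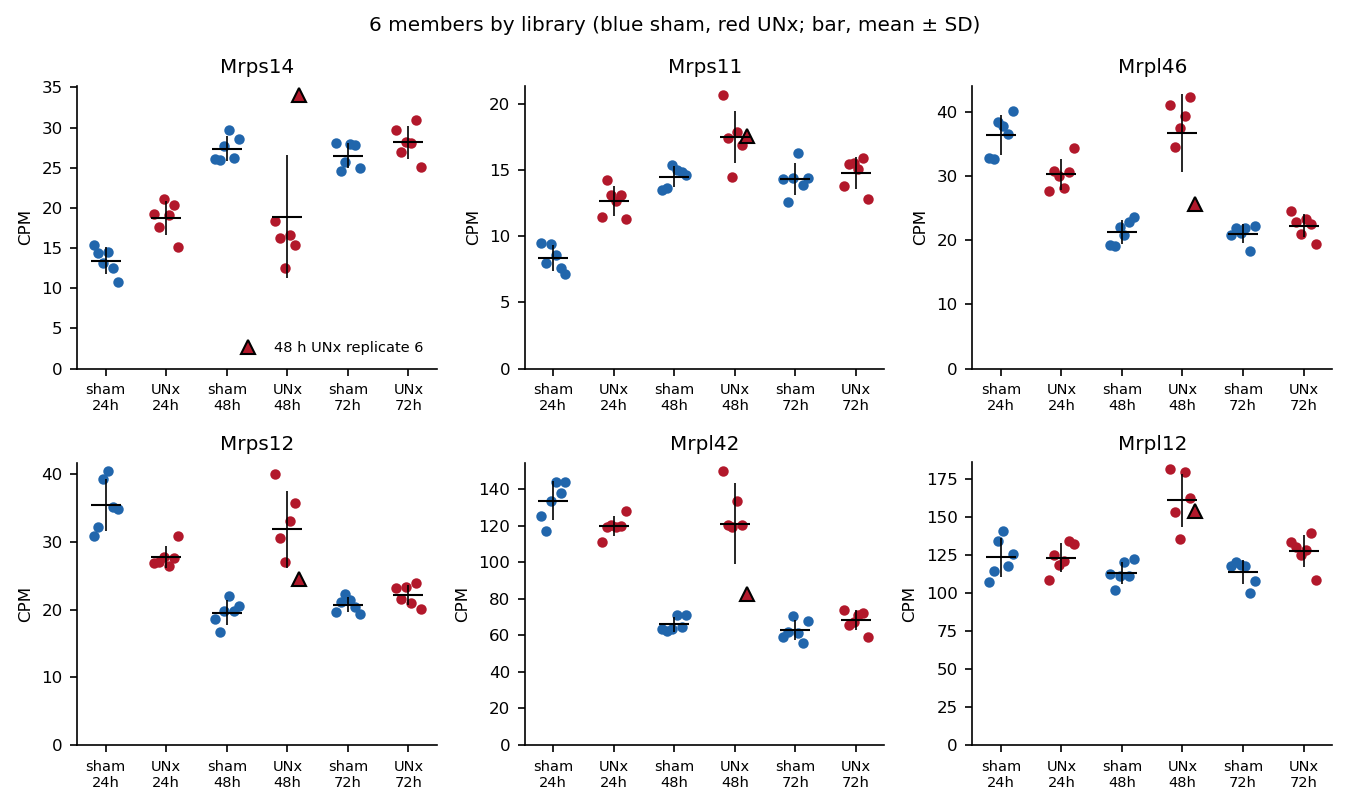
CPM of Mrps14, Mrps11, Mrpl46, Mrps12, Mrpl42 and Mrpl12 in each bulk library; blue for sham, red for UNx, bar for mean ± SD of 6 libraries, triangle for 48 h UNx replicate 6. The 24 h shams sit far from the later shams for all but Mrpl12, and the triangle for Mrps14 stands at 34.0 CPM above the 5 other UNx libraries.

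Calls went in opposite directions at 24 and 48 h for 10 members. All 8 that fell at 24 h rose at 48 h, and Mrps14 and Mrps18c rose at 24 h and fell at 48 h. Another 9 members rose at both times (Mrpl10, Mrpl11, Mrpl20, Mrpl40, Mrpl57, Mrps11, Mrps17, Mrps18a and Mrps36), and 19 of 77 were called at neither. The shares of all genes called in opposite directions, or in the same direction, at both times were not counted. These counts therefore do not show whether the members differ from other genes. The test of the difference itself, the 48 h effect minus the 24 h effect over all 36 libraries, was past the threshold upward for 29 of 78 members and downward for 13. Of all genes 19.3% and 17.7% were so called. The lowest p-values upward were those of Mrpl22 at 0.97 ± 0.10, Mrps12 at 1.05 ± 0.12 and Mrpl46 at 1.05 ± 0.12 (SE; edgeR adjusted p of 4.79e-08, 7.33e-08 and 7.89e-08). Downward they were Mrps14 at -1.01 ± 0.19, Mrps18c at -0.81 ± 0.16 and Mrpl36 at -0.61 ± 0.13 (SE; edgeR adjusted p of 9.84e-05, 0.000111 and 0.000296).

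With UNx replicate 6 as the only 48 h UNx library, 6 members were still called upward between 24 and 48 h and 0 downward, where 1.15% and 0.295% of all genes were called. The 6 were Mrpl22 (0.69; edgeR adjusted p = 0.0121), Mrps12 (0.67), Mrps21 (0.66), Mrpl43 (0.65), Mrps26 (0.62) and Mrps23 (0.56). All 6 are among the 8 members that fell at 24 h. The difference subtracts the 24 h effect, so this overlap draws on the same 24 h libraries and is no independent result. With the pseudogene score as a covariate edgeR called 0 members in either direction, and 13 had an unadjusted p under 0.05. Of all genes 0.00% were then called upward and 0.00663% downward, and 9.78% had an unadjusted p under 0.05.

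The 72 h effect minus the 48 h effect was called upward for 3 members and downward for 25, where 5.86% and 8.78% of all genes were called. The upward count was 8 with limma voom and 1 with no filter on low counts, where the shares of all genes are not given. Mrps15 (-0.74), Mrpl42 (-0.76) and Mrps36 (-0.55) had the lowest p-values downward, and Mrps14 (0.62), Mrps18c (0.44) and the scarce Mrpl23 (1.64) upward. For Mrps14 and Mrps18c the upward difference joins a negative 48 h value (-0.55 and -0.43) to a 72 h value near 0 (0.08 and 0.02). With replicate 6 as the only 48 h UNx library edgeR called 0 members, and 11 members and 1014 genes had an unadjusted p under 0.05 (0.00% of all genes called in either direction). Between 24 and 72 h, which leaves the 48 h libraries out of the contrast, 9 members were called upward and 3 downward, against 2.74% and 1.41% of all genes. With limma voom 13 were upward and 11 downward (7.25% and 5.00% of all genes), and with no filter on low counts 4 and 2 (0.720% and 0.559%). Mrps23 (0.47 ± 0.089), Mrpl43 (0.44 ± 0.098) and Mrpl22 (0.46 ± 0.10) had the lowest p-values upward (SE; edgeR adjusted p of 0.00355, 0.00828 and 0.00975). Mrps11 (-0.55 ± 0.11), Mrpl36 (-0.50 ± 0.13) and Mrpl19 (-0.33 ± 0.091) had them downward (SE; edgeR adjusted p of 0.00446, 0.0187 and 0.0283). With the pseudogene score as a covariate 1 was called upward, Mrpl23, and 0 downward, where 0.146% and 0.0331% of all genes were called.

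Members of both subunits were called. Over all genes 14.2% were called higher and 13.1% lower at 24 h, and 16.9% and 16.0% at 48 h. At 24 h 20 of 51 large subunit genes rose and 4 fell (median 0.12), and 9 of 26 small subunit genes rose and 4 fell (median 0.04). At 48 h 22 of the 50 large subunit genes tested rose and 0 fell (median 0.19), and 14 of 26 small subunit genes rose and 2 fell (median 0.20). By origin, 21 of 46 members with a bacterial counterpart rose at 24 h and 3 fell, and 8 of 31 mitochondria-specific members rose and 5 fell. At 48 h 17 of 45 and 19 of 31 rose, and 2 and 0 fell. The difference between these classes was not tested. At 72 h the medians were 0.08 and 0.09 for the subunits and 0.08 for each origin.

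Several members known from disease or function showed no common course. Mrpl3, mutated in a mitochondrial cardiomyopathy, rose at 24 h (0.31 ± 0.067, SE; edgeR adjusted p = 0.00385) and was 0.03 at 48 h. Mrpl44, also a cardiomyopathy gene, was 0.09 at 24 h, 0.04 at 48 h and 0.06 at 72 h, none of them called. Mrps22, whose mutations in people include kidney tubule disease, was 0.19, 0.19 and 0.14 at the 3 times, none called, with edgeR adjusted p of 0.0918, 0.0787 and 0.437. Mrpl12 was 0.01 at 24 h and 0.16 at 72 h, neither called, beside its rise at 48 h. Mrps15 was -0.01 at 24 h and 0.11 at 72 h, neither called.

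Per kilobase of the longest annotated transcript the members spanned a wide range in the 72 h shams. Mrps21 and Mrpl12 led at 87.7 and 86.3 CPM per kb, followed by Mrpl20 at 57.4, Mrpl28 at 42.6 and Mrpl54 at 42.2 CPM per kb. The median was 16.8 CPM per kb. Mrpl19 at 3.21 and Mrpl23 at 0.154 CPM per kb were the lowest. The order depends on the transcript length chosen.

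Promoter letters were examined because the members moved together in part and the regulators GABPA and NRF1 are known to act on nuclear genes for mitochondria. In the 250 bases before the RefSeq start (mouse build GRCm38.p6), both strands were searched for the GABPA core CCGGAAG, a palindromic NRF1 core, a YY1 core and TATAAA. Entries were found for 69 of 78 members. The GABPA core was present in 18 of 69 members (26.09%), beside 10.17% of 17491 protein-coding genes. The NRF1 core was in 3 (4.35%, against 1.21%), the YY1 core in 1, Mrps11 (1.45%, against 0.30%) and TATAAA in 5 (7.25%, against 13.68%). Mrpl43, Mrpl22 and Mrpl34 carry the GABPA core and rose at 48 h, Mrps22 carries it and was not called at any time, and the last 2 stretches are those of the largest rise and the largest fall at 48 h, without the motif. Capitals mark the GABPA core on either strand, and each stretch runs 5′ to 3′ on the gene's strand up to the place named and lies in no exon of the GENCODE M21 annotation.
Mrpl43 (chr19:45006443-45006557, minus strand, ending just before the start): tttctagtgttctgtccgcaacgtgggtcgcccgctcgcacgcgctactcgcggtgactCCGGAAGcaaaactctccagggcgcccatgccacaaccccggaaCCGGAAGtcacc
Mrpl22 (chr11:58171511-58171660, plus strand, ending 3 bases before the start): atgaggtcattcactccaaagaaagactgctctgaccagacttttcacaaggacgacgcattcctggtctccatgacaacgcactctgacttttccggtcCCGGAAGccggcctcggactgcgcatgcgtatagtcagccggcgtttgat
Mrpl34 (chr8:71464776-71464925, plus strand, ending just before the start): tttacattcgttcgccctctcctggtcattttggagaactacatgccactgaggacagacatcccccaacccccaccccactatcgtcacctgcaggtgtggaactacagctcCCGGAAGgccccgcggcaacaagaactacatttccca
Mrps22 (chr9:98601680-98601829, minus strand, ending just before the start): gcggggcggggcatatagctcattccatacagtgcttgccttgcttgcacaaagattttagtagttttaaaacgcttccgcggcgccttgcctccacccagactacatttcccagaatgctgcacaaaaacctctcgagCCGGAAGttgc
Mrpl42 (chr10:95501950-95502099, minus strand, ending just before the start): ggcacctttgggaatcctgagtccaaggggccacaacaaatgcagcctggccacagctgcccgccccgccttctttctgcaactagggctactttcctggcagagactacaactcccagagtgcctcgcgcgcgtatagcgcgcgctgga
Mrps14 (chr1:160195065-160195214, plus strand, ending just before the start): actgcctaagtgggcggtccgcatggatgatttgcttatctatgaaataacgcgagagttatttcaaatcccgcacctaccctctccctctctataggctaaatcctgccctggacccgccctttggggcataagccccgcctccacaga
The Mrpl43 stretch holds the core at 2 places. At 24 h 8 of 18 members with the GABPA core rose and 3 fell, and of the 51 without it 19 rose and 5 fell. At 48 h 7 of 18 rose and 1 fell with the core, and 25 of the 50 tested without it rose and 1 fell. Of all genes 14.2% were called higher and 13.1% lower at 24 h, and 16.9% and 16.0% at 48 h. The difference between members with and without the core was not tested. A match describes letters and is no evidence of binding.

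Mrps11 and Mrpl46 lie head to head on chromosome 7. Mrps11 spans 78783119 to 78792989 on the plus strand and Mrpl46 spans 78775236 to 78783531 on the minus strand (GRCm38, GENCODE M21), so the annotated models overlap around their starts. At 24 h Mrps11 rose and Mrpl46 fell, as given above, and at 48 h both rose, by 0.25 ± 0.08 and 0.77 ± 0.11 (SE; edgeR adjusted p of 0.0293 and 0.000445). The library kit keeps strand, but no source used here says whether counting did, so reads of the overlap may count for either gene.

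Genes that serve the mitochondrial ribosome were taken from 5 lists. Over all genes 14.2% were called higher and 13.1% lower at 24 h, and 16.9% and 16.0% at 48 h. Whether these lists differ from all genes was not tested. Of 7 subunit genes under other symbols, a list that also holds the member Mrpl58, 6 were tested. Dap3 (0.41) and Aurkaip1 (0.16) rose at 24 h, and 3 rose at 48 h, including Gadd45gip1 (0.44). Of 27 assembly and ribosomal RNA modification genes tested, 2 rose and 3 fell at 24 h and 4 rose and 4 fell at 48 h. Among them the GTPase Mtg1 rose at 24 h (0.42 ± 0.078, SE; edgeR adjusted p = 0.00148) and Mpv17l2 rose at 48 h (0.87 ± 0.12, SE; edgeR adjusted p = 0.000464). Of 13 translation factors 1 rose and 3 fell at 24 h, including the recycling factor Mrrf (-0.34), and 7 rose and 1 fell at 48 h. The elongation factor Gfm1 was at 118 ± 4.76 CPM in 48 h shams and 151 ± 4.66 CPM in UNx (SD, n = 6 each). Its log2 fold change was 0.33 with all 6 UNx libraries (edgeR adjusted p = 0.000562) and 0.26 with replicate 6 alone. Of 21 mitochondrial tRNA synthetase genes and partners 5 rose and 1 fell at 24 h, led by Yars2 (0.50), and 7 rose and 2 fell at 48 h, led by Gatc (0.70).

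Among 18 genes of mitochondrial transcription and its regulators 2 rose and 3 fell at 24 h, beside 14.2% and 13.1% of all genes. The regulator Gabpa itself fell at 24 h from 63.2 ± 4.87 to 50.7 ± 1.43 CPM (SD, n = 6 each; log2 fold change -0.31; edgeR adjusted p = 0.000986). At 72 h it was -0.17 and just missed the threshold (edgeR adjusted p = 0.0503). At 48 h 1 of 18 rose, Myc (0.72), and 2 fell, including Yy1 (-0.26), beside 16.9% and 16.0% of all genes. At 72 h 0 genes of these 5 lists were called, where 1.21% of all genes were called higher and 0.502% lower.

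The proteins of the cytosolic ribosome and of the respiratory chain are given for comparison. Over all genes 14.2% were called higher and 13.1% lower at 24 h. At 48 h these shares were 16.9% and 16.0%, and at 72 h 1.21% and 0.502%. Of 83 cytosolic ribosomal protein genes tested, 37 rose and 7 fell at 24 h (median 0.17), 16 rose and 24 fell at 48 h (median -0.12), and 0 rose and 1 fell at 72 h (median -0.06, with 14 of 83 above 0). Of the nuclear-encoded respiratory chain genes 50 of 90 rose and 9 fell at 24 h (median 0.22), 33 of 91 rose and 2 fell at 48 h (median 0.06), and 0 were called at 72 h (median 0.10, with 85 of 91 above 0). With 48 h UNx replicate 6 alone the medians were 0.25 for the members, 0.30 for the respiratory chain and 0.09 for the cytosolic ribosome. The 13 mitochondrially encoded protein genes had medians of -0.04, 1.09 and 0.12 at the 3 times, and 0.17 with replicate 6 alone. Differences between the lists were not tested. In bulk tissue a change in the number of cells of a type and a change in RNA per cell cannot be told apart.

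In nuclei at 24 h no member was called over all nuclei. The summed counts of all nuclei gave 0 of 78 called by edgeR (0.00% of all genes in each direction), 0 with an unadjusted p under 0.05, a median of -0.04 and 30 of 78 above 0. Over all genes of the same fit the median was -0.01 and 47.9% were above 0. With 2 mice a group that fit called 0 of 19975 genes, and 360 had an unadjusted p under 0.05. DESeq2 also called 0 members. By the labels, replicate 1 of either operation belongs to batch 3 and replicate 2 to batch 4. With the batch as a block 0 members were called, where 0.501% of all genes were called higher and 0.536% lower. The lowest p-values were those of Mrpl45 (0.22), Mrpl37 (0.26) and Mrps27 (0.11) upward and Mrpl22 (-0.25), Mrpl27 (-0.16) and Mrpl33 (-0.11) downward, none called. The 78 members summed to 2500 and 3429 CPM in the sham mice of batches 3 and 4 and to 2349 and 3374 CPM in the UNx mice. Without Mrps6, which alone held 646 to 1108 CPM, the sums were 1709 and 2526 CPM in the shams and 1703 and 2266 CPM in the UNx mice. The batch 3 mice were then nearly equal, and the UNx mouse of batch 4 was below its sham. In 64 of 78 members batch 4 was above batch 3 in both operations by plain CPM. The share of all genes so ordered is not given, so this count may describe the libraries rather than the members. Leaving out 1 mouse moved the median to between -0.35 and 0.35. The share of mitochondrially encoded UMIs was 0.603% and 5.05% in the shams and 0.924% and 7.36% in the UNx mice.

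The batches also differed in transcripts found in the wrong class. Nucleus classes are the deposited annotation in its merged form, no source used here says how doublets were treated, and 18 barcodes occurred in more than 1 library. MTAL is the medullary and CTAL the cortical thick ascending limb, and PTS1 to PTS3 are the proximal tubule segments. Proximal tubule markers summed to 257 and 287 CPM in MTAL nuclei of the batch 3 sham and UNx mice and to 3097 and 2879 CPM in those of batch 4. In PTS1 nuclei, where these markers were highest in every mouse, they summed to 11760 to 15720 CPM. Stray transcripts also differed within a batch. The median class level of 5 adipose markers was 14.9 CPM in the sham and 0.801 CPM in the UNx mouse of batch 3. In batch 4 it was 0.216 CPM in the sham and 58.0 CPM in the UNx mouse. Mrpl12 was at 23.4 and 26.8 CPM in batch 3 and 67.5 and 70.2 CPM in batch 4. Its within-batch log2 differences were 0.19 and 0.06. Within batches the median log2 difference over members was -0.01 in batch 3 and -0.18 in batch 4, and 7 members were higher and 37 lower in both. Within-batch values use plain CPM without TMM scaling, so they can differ in sign from the fitted values. The shares of all genes higher or lower in both batches are not given, so these counts do not show whether the members differ from other genes. The part of free RNA in these levels was not tested.

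PTS1 held 959 and 538 nuclei in the shams and 770 and 430 in the UNx mice. Its members had a median of -0.14, with 19 of 78 above 0, beside a median of -0.02 and 46.8% above 0 over all genes. edgeR called 0 (0.00% of all genes), and 0 had an unadjusted p under 0.05. With the batch as a block 0 were called, 0.650% of all genes were called higher and 0.978% lower, and 5 members had an unadjusted p under 0.05. The lowest p-values were those of Mrpl49, Mrpl16 and Mrps30 downward and Mrps25, Mrps18b and Mrps9 upward. Mrpl49 was at 6.19 and 10.3 CPM in the shams and 4.03 and 3.98 CPM in UNx, from 19 to 79 UMIs a mouse (log2 fold change -0.97 ± 0.45, SE; edgeR adjusted p = 1). Mrpl16 was at 20.4 and 18.0 CPM in shams and 11.2 and 13.6 CPM in UNx (-0.58 ± 0.28, SE; edgeR adjusted p = 1). Mrps30 was -0.66, Mrps25 0.33, Mrps18b 0.44 and Mrps9 0.16, none called. In the bulk libraries of 24 h Mrpl49 was -0.11, not called, and Mrpl16 was 0.30, called higher.

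Of 30 deposited nucleus classes 23 had at least 10 nuclei in every mouse. Across them edgeR called 0 of 1359 tests of a member in a class, where 0.00% of all genes were called in either direction. Of these tests 4 had an unadjusted p under 0.05, and 46 had one with the batch as a block. The shares of all genes under 0.05 over these classes are not given. DESeq2 called 0. With the batch as a block 1 was called, Mrps6 in the class DTL3-ATL (0.92 ± 0.23, SE; edgeR adjusted p = 0.0325), where 0.203% of genes were called higher and 0.230% lower. There Mrps6 was at 446 and 986.8 CPM in the shams and 1247 and 1184 CPM in UNx. Without Mrps6 the summed members, in plain CPM without TMM scaling, were above sham in both batches in 2 classes. They were below in both in 6 and of opposite sign in 15. In all 23 classes the batch 4 mouse was above the batch 3 mouse in both operations.

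In the sham of batch 3 the sum ran from 1520 CPM in PTS3 to 2082 CPM in CTAL2, with a median of 1824 CPM, and in the UNx mouse of batch 3 from 1455 CPM in PTS1 to 2271 CPM in ICA. The PTS1, PTS2 and PTS3 classes ranked between the lowest and the sixth lowest of 23 in every mouse, and MTAL ranked among the 3 highest. These sums are relative to all RNA of a nucleus, and the order is a description.

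Mrps6 was at 4756 and 4390 CPM in MTAL nuclei of the shams and 3544 and 4320 CPM of the UNx mice, the highest class in each of 4 mice. In PTS1 nuclei it was at 38.4 and 32.6 CPM in batch 3 and 350 and 433 CPM in batch 4. CTAL1 and CTAL2 nuclei held 1816 to 3470 CPM. Without it the members of the MTAL class summed to 2039 to 2799 CPM. The Mrps6 gene (chromosome 16, 92058270 to 92112227, GRCm38) has exons that overlap Slc5a3, the myo-inositol transporter gene of the osmotic response, and Gm49711 on the same strand, so its reads may belong to either. Slc5a3 itself was counted at 5.00 to 22.0 CPM in MTAL nuclei. In bulk libraries Mrps6 was 0.14 at 24 h, -0.31 at 48 h and 0.05 at 72 h, none called.

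**Figure D5:**
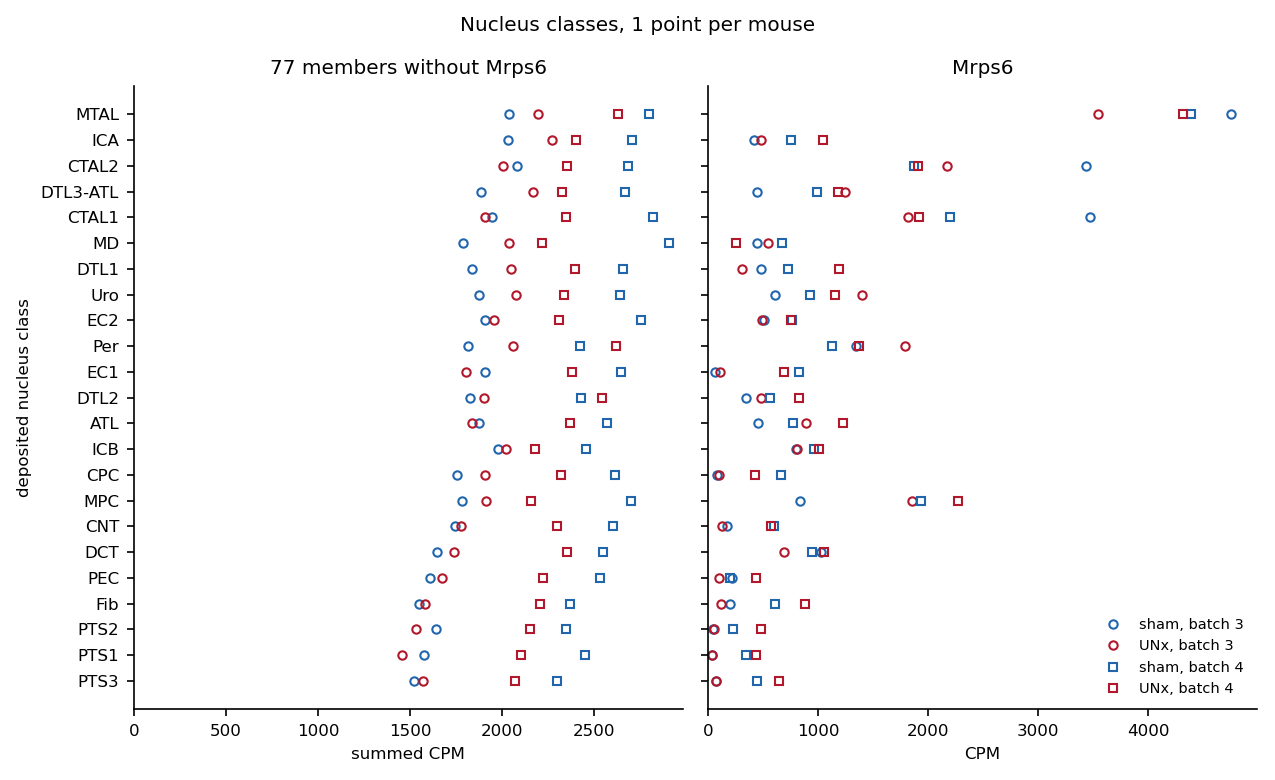
Summed CPM of 77 members without Mrps6 (left) and CPM of Mrps6 (right) in each of 23 nucleus classes, 1 point per mouse; circles for batch 3, squares for batch 4, blue sham, red UNx. Squares lie right of circles in every class on the left, and on the right MTAL stands at 3544 to 4756 CPM.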

How the data were processed

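Gene-level bulk values are estimated counts made by the authors with Salmon 1.5.0 against GRCm39, and nucleus values are estimated UMI counts from alevin against mm10, per the submitters' processing notes. FastQC and Seurat are also named there. Of the deposited bulk values 34.1% were not whole, so they were rounded, and nucleus counts were summed per mouse and class before rounding. Genes were kept by filterByExpr and tested with edgeR 4.0.16 (R 4.3.3) by the quasi-likelihood test, with TMM scaling and a Benjamini-Hochberg adjusted p under 0.05 over all genes. Bulk tests used the 12 libraries of a time, and differences between times used all 36. Printed bulk CPM use TMM factors over the 36 libraries, and sham levels log2(CPM + 0.5). Nucleus CPM and within-batch differences use plain UMI totals.

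Members were named by the 8 largest called changes a direction (or the 3 lowest p-values), the 3 lowest p-values a direction in time differences and nuclei, opposite calls, failed filters and 6 landmarks. In each related list the 2 lowest p-values were named. Other members are named only in lists of calls, levels per kb, library extremes or with Mrps6, and were chosen after their values were seen. Members and lists were chosen with earlier results of these data known, and the sorting into particle and origin was made after values were seen.

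Alternatives were DESeq2 1.42.0 size factors and Wald test, limma 3.58.1 with voom, no filter, no mitochondrial genes, all 36 libraries, the pseudogene score, a replicate block, left-out libraries and, for nuclei, finer classes or at least 50 nuclei a class. For nuclei the replicate number is the labelled batch and pairs the mice. Within-batch values stand beside those results. Sequences and starts are from RefSeq (GRCm38.p6), found for 69 of 78 members. The scripts were tested on simulated data.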

Additional observations from a re-analysis of the deposited data

Results flagged for a closer look

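In groups of 6 libraries a library was listed when it stood far from the rest of its group (Dixon's test). This gave 8 of 108 group values examined, and chance gives about 1 in 20. In the 48 h UNx group replicate 6 stood apart with 15.2% mitochondrial counts, a pseudogene score of 0.00307 and 34.0 CPM of Mrps14. In the 24 h UNx group a score of 0.864 and 30.8 CPM of Mrps12 stood apart. In the 72 h UNx group a mean member level of 4.68 (log2) and 13.8 CPM of Mrpl41 stood apart, and in the 72 h shams 18.3 CPM of Mrpl46.

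The nephrectomy effect differed between times by a test of the difference over all 36 libraries for the members with the lowest p-values. From 24 to 48 h the difference was 0.97 for Mrpl22, 1.05 for Mrps12 and 1.05 for Mrpl46, and -1.01 for Mrps14, -0.81 for Mrps18c and -0.61 for Mrpl36. From 48 to 72 h it was 1.64 for Mrpl23, 0.62 for Mrps14 and 0.44 for Mrps18c, and -0.74 for Mrps15, -0.76 for Mrpl42 and -0.55 for Mrps36. From 24 to 72 h it was 0.47 for Mrps23, 0.44 for Mrpl43 and 0.46 for Mrpl22, and -0.55 for Mrps11, -0.50 for Mrpl36 and -0.33 for Mrpl19. The 24 h libraries belong to another labelled batch, so time and batch cannot be told apart in the first and last of these. With UNx replicate 6 as the only 48 h UNx library, the 48 to 72 h differences of Mrps14 (-0.22) and Mrps18c (-0.05) changed sign. Those of Mrpl23 (0.86), Mrps15 (-0.31), Mrpl42 (-0.20) and Mrps36 (-0.38) kept their sign at a smaller size. Mrpl23 was scarce, with means of 0.573 CPM in the 72 h shams and 0.928 CPM in the 72 h UNx libraries.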

How the results depend on the processing

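With the pseudogene score the counts of members called higher and lower were 0 and 0 at 24 h, 0 and 0 at 48 h (median 0.26), and 0 and 0, 0 and 0, and 1 and 0 for the differences 48 minus 24, 72 minus 48 and 72 minus 24 h. Its reversals were Mrps14 (-0.0517), Mrpl13 (-0.0656), Mrps12 (0.0055), Mrpl22 (0.0916), Mrps26 (0.0206), Mrps21 (0.0185) and Mrpl46 (0.15) at 24 h, Mrps18c (0.0586) and Mrps14 (0.24) at 48 h, and Mrps14 (0.22) in 48 minus 24 h. Without 48 h UNx replicates 1 to 5 the counts were 0 and 0 at 48 h (median 0.25), 6 and 0 in 48 minus 24 h, and 0 and 0 in 72 minus 48 h. Mrpl41 (-0.0489), Mrps18c (0.0703) and Mrps14 (0.30) then reversed at 48 h, and Mrps14 (-0.22) and Mrps18c (-0.0478) in 72 minus 48 h. limma voom gave 6 lower at 48 h, 3 higher at 72 h, 8 higher in 72 minus 48 h and 11 lower in 72 minus 24 h. All 36 libraries in 1 fit gave 4 lower at 48 h, and the DESeq2 Wald test 1 higher at 72 h. With no filter 1 was higher in 72 minus 48 h and 4 in 72 minus 24 h. The cause of these changes was not tested. Where no share of all genes is given for a fit, its counts do not show whether the members differ from other genes. Of the 44 named results, 34 lost their call and 10 reversed with the score, 3 were lost with no filter, and 0 with DESeq2 size factors, voom, no mitochondrial genes or the block. The score split sham from UNx fully at 24 h and, but for UNx replicate 6, at 48 h. Its losses and reversals at these times are therefore no independent check. The DESeq2 Wald test lost 0 of the 43 it gave, and all 36 libraries in 1 fit 0 of 26.

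With 1 library left out, 24 to 29 members were higher and 7 to 11 lower at 24 h, 34 to 42 and 0 to 6 at 48 h, and 0 to 5 and 0 at 72 h. The 6 called lower at 48 h and the 5 called higher at 72 h came without UNx replicate 6 of that time. In nuclei the median ran from -0.35 to 0.35 over all nuclei and from -0.45 to 0.19 in PTS1, where an arm of 1 mouse is assumed to vary like the other. With the replicate block the bulk counts were 25 and 8, 36 and 2, and 0 and 0. Bulk replicate numbers did not pair the mice (correlations of deviations -0.285 to 0.135), and 1, 0 and 1 of 6 shams were closest to their own number. In nucleus classes the block gave 1 higher.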
